A study of Rattus norvegicus with 15 samples.

Results

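*Pc*, *Pck2*, *Ogdhl* and *Idh3a* encode enzymes of the mitochondrial matrix that fill, drain or turn the tricarboxylic acid (TCA) cycle. They are 4 of the 8621 genes listed in the RNA-seq tables of the study, and they were chosen by the measured values of this very comparison, as enzymes linked to the cycle whose transcripts were higher in rat pheochromocytoma (PCC) than in wild-type (WT) adrenal medulla. Their values for PCC vs. WT are therefore a description, with no test. *Cs*, which encodes citrate synthase, the enzyme that condenses oxaloacetate with acetyl-CoA, was set beside them as the reference of the cycle.

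RNA-seq was performed on macrodissected adrenal medulla, from which the cortex had been removed. All rats are labelled Sprague-Dawely, and those of the 5 WT and the 5 PCC samples were 7 to 9.5 months old. Those of the 5 samples at the stage of hyperplasia (HYP) were 4 to 5 months old, so HYP differs in age from both other groups. HYP and PCC rats were MENX rats, which are homozygous for a spontaneous frameshift mutation of *Cdkn1b*, the gene for the cell cycle inhibitor p27, in every cell of the body. The methods describe the tumours as 2 PCCs and 3 advanced PCCs, but the labels do not say which samples are which, and all 5 were kept as 1 group.

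The TCA cycle loses carbon whenever its intermediates are taken for biosynthesis, and anaplerosis is the refilling of the cycle. Pyruvate carboxylase (*Pc*), a biotin enzyme, makes oxaloacetate from pyruvate, and the mitochondrial phosphoenolpyruvate carboxykinase (*Pck2*) turns oxaloacetate into phosphoenolpyruvate, so that the pair work on opposite sides of the same metabolite. *Idh3a* encodes the catalytic alpha subunit of the NAD-dependent isocitrate dehydrogenase, and *Ogdhl* a paralog, known mainly from brain, of the first component of the 2-oxoglutarate dehydrogenase complex.

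In the Rn06 build used by the authors, *Pc* (ENSRNOG00000019372) spans bases 219759183 to 219859848 of chromosome 1, *Pck2* (ENSRNOG00000018536) bases 34216833 to 34224193 of chromosome 15, *Ogdhl* (ENSRNOG00000019955) bases 8497569 to 8523557 of chromosome 16, and *Idh3a* (ENSRNOG00000010277) bases 59164572 to 59183908 of chromosome 8. *Cs* (ENSRNOG00000023520) spans bases 2752680 to 2778963 of chromosome 7. All 5 are protein-coding genes on the forward strand, and the counts are over the exons of each gene.

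The promoters of *Pck2*, *Ogdhl* and *Cs*, 2 members that were higher in PCC and the reference that was lower, are shown to set them side by side. Each is the RefSeq sequence of the GRCr8 build from 250 bases before to 50 bases after the start of the gene, on the forward strand, at chr15:32997603-32997902 for *Pck2*, chr16:7584416-7584715 for *Ogdhl* and chr7:1348139-1348438 for *Cs*. Capitals mark the only motif found.
Pck2: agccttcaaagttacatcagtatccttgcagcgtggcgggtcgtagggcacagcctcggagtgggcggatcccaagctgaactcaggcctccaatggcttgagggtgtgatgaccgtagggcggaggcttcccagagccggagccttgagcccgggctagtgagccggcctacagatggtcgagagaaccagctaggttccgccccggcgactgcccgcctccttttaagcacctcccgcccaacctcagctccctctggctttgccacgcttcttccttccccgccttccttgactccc
Ogdhl: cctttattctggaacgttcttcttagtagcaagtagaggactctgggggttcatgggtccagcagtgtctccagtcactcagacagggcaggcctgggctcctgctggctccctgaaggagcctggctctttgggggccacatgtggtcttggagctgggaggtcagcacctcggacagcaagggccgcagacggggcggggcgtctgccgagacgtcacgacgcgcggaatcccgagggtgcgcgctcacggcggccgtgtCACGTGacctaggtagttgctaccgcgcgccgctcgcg
Cs: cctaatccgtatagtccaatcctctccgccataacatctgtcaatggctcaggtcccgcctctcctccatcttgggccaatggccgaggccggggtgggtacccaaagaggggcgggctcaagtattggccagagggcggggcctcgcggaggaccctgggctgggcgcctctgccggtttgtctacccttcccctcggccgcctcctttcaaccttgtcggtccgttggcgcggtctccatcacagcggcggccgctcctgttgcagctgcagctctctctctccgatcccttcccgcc
The motifs searched, on both strands, were TGATGCAA (the ATF4 response element), AAGGTCA (the half-site of estrogen-related receptors), ACGTG (the hypoxia response core), CACGTG (the E-box) and TGACGTCA (the cAMP response element). The *Ogdhl* window held 1 E-box at bases 12 to 17 after the start, which by its letters holds the overlapping hypoxia response core on either strand. Of the 33469 promoters of this length, 6.42% held the E-box, 19.3% the hypoxia response core, 0.795% the ATF4 response element, 4.61% the receptor half-site and 1.83% the cAMP response element. These letters were not found in the windows of *Pck2* and *Cs*. The G and C content of the windows was 62.7% for *Pck2*, 64.7% for *Ogdhl* and 65.0% for *Cs*. *Pc* and *Idh3a* had no entry.

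The depth, as reads assigned to genes, was 16315018 to 23831269 per sample (WT 17723131 to 20972536, HYP 16315018 to 18839462, PCC 17340695 to 23831269). Levels are given as CPM (counts scaled to a common library size), scaled with edgeR's TMM factors. The authors' tables list only the genes that they had called at an adjusted *p* under 0.05 in each pair of groups (7683 between PCC and WT, 4406 between HYP and WT, 3360 between PCC and HYP). All 4 members are listed for PCC vs. WT, *Pc* and *Pck2* for PCC vs. HYP, and none for HYP vs. WT. HYP values of *Ogdhl* and *Idh3a* were therefore not analysed here. The scaling of the samples sets the level that counts as no change: among the genes called, 54.8% were higher in PCC than in WT with TMM and 76.3% when samples were scaled to the summed listed counts, which raised the median log2 fold change by 0.50. The same scaling moved this share from 54.8% to 89.3% for HYP vs. WT (shift 0.46), while PCC vs. HYP went from 49.2% to 68.4% (shift 0.15). Scaling to the library totals gave 68.9%, 75.8% and 70.7% (shifts 0.29, 0.19 and 0.22), and the authors' size factors gave 61.3% for PCC vs. HYP (shift 0.11). DESeq2's size factors gave 34.1% for PCC vs. HYP (shift -0.17). *Pc*, *Pck2*, *Ogdhl* and *Idh3a* were higher in PCC, and *Cs* lower, under each of these scalings.

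The medulla is a mixture of cells, and the markers of some of its cell types differed between the groups. The summed level of 10 chromaffin markers, among them *Th* and *Dbh* of catecholamine synthesis, was 2001 to 8632 CPM in WT, 10263 to 14980 in HYP and 17653 to 37345 in PCC, with no overlap between the groups. The summed level of 9 markers of the steroid-making cortex was 26251 to 58565 CPM in WT, 12685 to 31734 in HYP and 893 to 14550 in PCC, so that RNA of cortical cells remained in all groups. The summed level of 7 neuron markers was 61.6 to 427 CPM in WT, 966 to 1782 in HYP and 1115 to 2583 in PCC, and that of 4 endothelial markers 413 to 553, 249 to 358 and 128 to 297 CPM. That of 7 sustentacular and Schwann markers overlapped between all groups, at 59.5 to 111, 80.5 to 117 and 60.3 to 110 CPM. Of these 7, 5 were called higher and 2 lower for PCC vs. WT. For 2 macrophage and leukocyte markers it was 30.6 to 40.7, 48.1 to 56.8 and 10.4 to 61.1 CPM, and PCC spanned both other groups. No marker of these lists was at 0 throughout a group. Of the tested markers, 10 of 10 chromaffin genes were called higher and 10 of 12 cortex genes lower for PCC vs. WT, 6 of 8 and 4 of 8 from WT to HYP, and 3 of 9 and 0 of 6 from HYP to PCC. At this last step all 6 cortex genes had log2 fold changes below 0. Of all genes tested, 46.7% were called higher and 38.5% lower for PCC vs. WT, and 21.8% and 22.6% for PCC vs. HYP. For HYP vs. WT 32.5% of 4108 genes were called lower, and of the 2960 genes called in that fit 54.8% were higher. In a separate fit over all 15 samples, with another set of genes, 27.6% were called higher. That share is not the one to set beside the marker counts. Only markers that the authors had called could be counted, 11 of 14 chromaffin and 12 of 15 cortex genes of the lists. *Pnmt*, *Chga* and *Chgb* were not among them. In such bulk samples, fewer cells of a type and less RNA per cell cannot be told apart.

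*Pc*, the enzyme that supplies oxaloacetate, was the most abundant of the 4 per length of transcript. Its level was 239, 244, 331, 245 and 333 CPM in WT, 398, 321, 253, 402 and 487 CPM in HYP, and 464, 529, 795, 1332 and 697 CPM in PCC, each in the order of replicates 1 to 5. PCC replicate 4 stood above all other samples, every PCC sample lay above every WT sample, and HYP overlapped both groups. The mean was 278 ± 48.7 CPM (SD, n = 5) in WT, 372 ± 88.7 (SD, n = 5) in HYP and 763 ± 344 (SD, n = 5) in PCC, and the log2 fold change for PCC vs. WT was 1.43 (standard error 0.28).

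*Pck2*, which takes oxaloacetate out of the cycle, was far less abundant per length. Its level was 21.8, 21.7, 17.5, 14.2 and 8.28 CPM in WT, 32.1, 26.0, 18.9, 29.3 and 37.8 CPM in HYP, and 40.1, 65.3, 45.9, 70.6 and 54.0 CPM in PCC, each in the order of replicates 1 to 5. All PCC samples lay above all HYP samples, and 1 HYP sample, replicate 3, lay within the WT range. The mean was 16.7 ± 5.68 CPM (SD, n = 5) in WT, 28.8 ± 7.04 (SD, n = 5) in HYP and 55.2 ± 12.8 (SD, n = 5) in PCC. With a log2 fold change of 1.66 (standard error 0.31), *Pck2* had the largest difference of the 4 for PCC vs. WT.

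*Ogdhl*, the paralog of the 2-oxoglutarate dehydrogenase, was at 26.4, 29.4, 26.7, 18.7 and 28.1 CPM in the WT replicates in order and at 29.5, 79.1, 63.4, 60.3 and 74.0 CPM in PCC replicates 1 to 5. PCC replicate 1 was nearly at the highest WT sample, and the other PCC samples lay well above it. WT averaged 25.9 ± 4.16 CPM (SD, n = 5) and PCC 61.2 ± 19.3 CPM (SD, n = 5), a log2 fold change of 1.21 (standard error 0.27). The same PCC sample was the lowest of the PCC samples for *Pc* and *Pck2* as well.

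*Idh3a*, the catalytic subunit of isocitrate dehydrogenase, had the smallest difference of the 4. Its level was 44.2, 43.0, 60.5, 59.0 and 55.7 CPM in the WT replicates in order and 102, 82.2, 83.4, 67.4 and 74.4 CPM in PCC replicates 1 to 5, so that PCC replicate 1 was the highest here. WT averaged 52.5 ± 8.31 CPM (SD, n = 5) and PCC 81.9 ± 12.9 CPM (SD, n = 5), a log2 fold change of 0.61 (standard error 0.14).

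*Cs* went the other way. Its level was 269.5, 335, 286, 286 and 245 CPM in WT replicates 1 to 5, 109, 134, 156, 171 and 162 CPM in HYP, and 102, 106, 126.4, 128 and 140.3 CPM in PCC. Every WT sample lay above every HYP and PCC sample, and HYP and PCC overlapped. *Cs* fell in HYP vs. WT by 1.001 on the log2 scale (standard error 0.17, adjusted *p* = 0.00252 by the quasi-likelihood test of edgeR, adjusted after Benjamini and Hochberg), and its log2 fold change for PCC vs. WT was -1.29. Among all genes tested, 21% were lower in HYP than in WT with no overlap, and 26.1% were so in PCC.

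**Figure D1:**
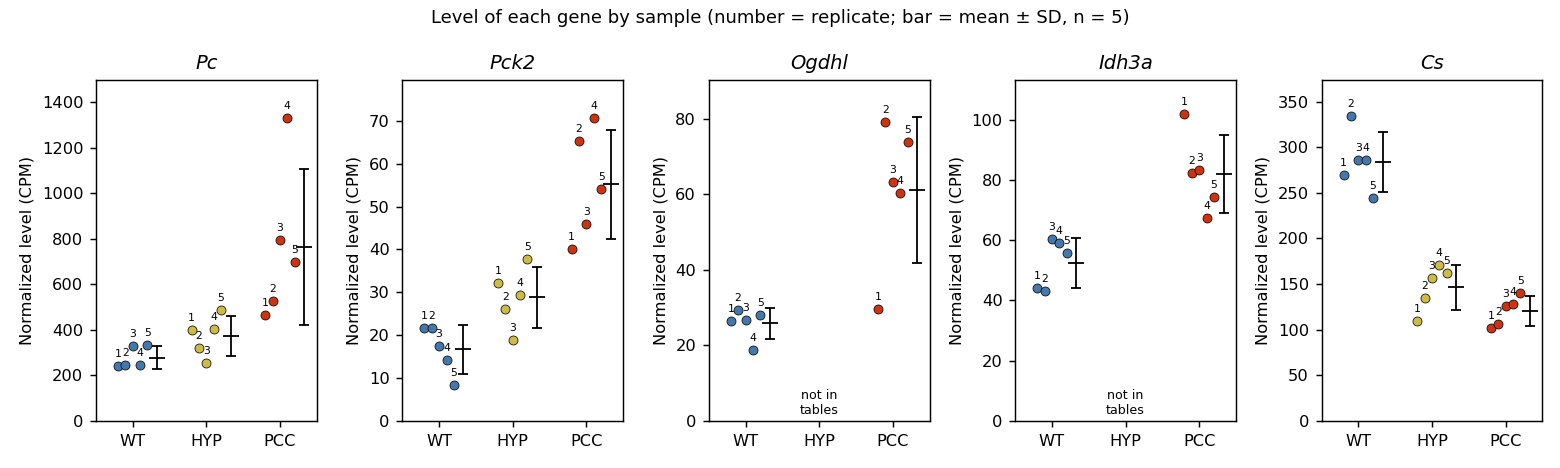
Level in CPM (vertical axes from 0, different in each panel) of *Pc*, *Pck2*, *Ogdhl*, *Idh3a* and *Cs* in each sample by group, with the replicate number beside each point and the mean ± SD of the 5 samples as a bar. Every PCC sample lies above every WT sample for the first 4 genes and below for *Cs*, and PCC replicate 4 stands out for *Pc* at 1332 CPM.

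Since the 4 genes were chosen for PCC vs. WT, their 4 of 4 higher calls there follow from the choice, and among all 7001 genes tested 46.7% were called higher and 37.5% were higher with no overlap between the groups. Of the TCA cycle and anaplerosis genes tested, *Idh3a* had the smallest rise of the 4. The nearest genes that are not members were *Gpt*, the cytosolic alanine aminotransferase, with a log2 fold change of 0.90, and *Mdh2*, the mitochondrial malate dehydrogenase, with -0.44.

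Which of these differences lay between hyperplasia and tumour, and which between WT and hyperplasia, could be tested for *Pc* and *Pck2* only. These tests share their PCC or WT samples with the comparison that chose the genes, and are to that extent not independent of it. Moreover, *Pc* and *Pck2* have HYP values here through the authors' call for PCC vs. HYP on the same counts, and *Cs* through their call for HYP vs. WT. The *p*-values below therefore describe how far the samples lie apart and are no independent evidence of a difference. Per the methods, each group was made up of 5 animals.

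*Pck2*, already called by the authors for PCC vs. HYP, was higher in PCC than in HYP by 0.82 on the log2 scale (standard error 0.21, adjusted *p* = 0.0361 by edgeR). For *Pc* the log2 fold change was 0.91 (standard error 0.29, 95% interval 0.35 to 1.47), which did not pass the test (adjusted *p* = 0.0728 by edgeR), and the highest HYP sample, at 487 CPM, lay above the lowest PCC sample, at 464 CPM. Of all 3148 genes tested for PCC vs. HYP, 21.8% were called higher and 31.5% were higher without overlap, so that 1 of 2 members called is a count too small to set against it. Both calls sat near the threshold. The call of *Pck2* was lost without HYP replicate 1, 2, 3 or 4 and without PCC replicate 2, 3 or 4 (log2 fold change 0.68 to 0.90, adjusted *p* = 0.0516 to 0.0928 by edgeR), and *Pc* passed without PCC replicate 1 (1.01, adjusted *p* = 0.0499 by edgeR).

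From WT to HYP neither gene is among those listed by the authors. In a fit over all 15 samples, restricted to genes with values in every sample, the log2 fold change for HYP vs. WT was 0.39 (standard error 0.26, adjusted *p* = 0.674 by edgeR) for *Pc* and 0.72 (standard error 0.28, adjusted *p* = 0.111 by edgeR) for *Pck2*, and neither passed the test, against 27.6% of all 5268 genes called higher. In the same fit both genes passed the test from HYP to PCC, *Pc* with 1.07 (standard error 0.26, adjusted *p* = 0.0181 by edgeR) and *Pck2* with 0.98 (standard error 0.28, adjusted *p* = 0.0345 by edgeR), while *Cs* had -0.25 (standard error 0.17, adjusted *p* = 0.680 by edgeR). Which of the steps each gene passed is the pattern by which it entered the tables, and nothing is read from it. The difference between the steps was not tested.

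The number of reads per *Cs* read of the same library needs no scaling between samples. For *Pc*, it was 0.729 to 1.36 in WT, 1.62 to 3.64 in HYP and 4.55 to 10.4 in PCC, so that the groups did not overlap at either step. For *Pck2*, it was 0.0340 to 0.0809 in WT, 0.121 to 0.294 in HYP and 0.363 to 0.617 in PCC, again without overlap. The groups thus separate by this ratio at the step from WT to HYP, where the levels of *Pc* and *Pck2* overlap and that of *Cs* does not.

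On the log2 scale the ratio of *Pc* to *Cs* was higher by 1.37 (standard error 0.25) in HYP than in WT and by 1.24 (standard error 0.29) in PCC than in HYP, and each *p* was 0.00794 in a two-sided exact permutation test. The ratio of *Pck2* to *Cs* was higher by 1.80 (standard error 0.30) and by 1.21 (standard error 0.26) at the same steps, each with an exact permutation *p* of 0.00794, and in all 4 tests this is the smallest *p* that 5 samples against 5 allow. Members chosen for high values in PCC are set here against a reference listed for its low values in HYP, so that the separation is in part fixed by these choices. For *Ogdhl* the number of reads per *Cs* read was 0.0657 to 0.115 in WT and 0.290 to 0.747 in PCC, and for *Idh3a* 0.129 to 0.228 in WT and 0.525 to 0.9995 in PCC. In PCC replicate 1 *Idh3a* had about as many reads as *Cs*.

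**Figure D2:**
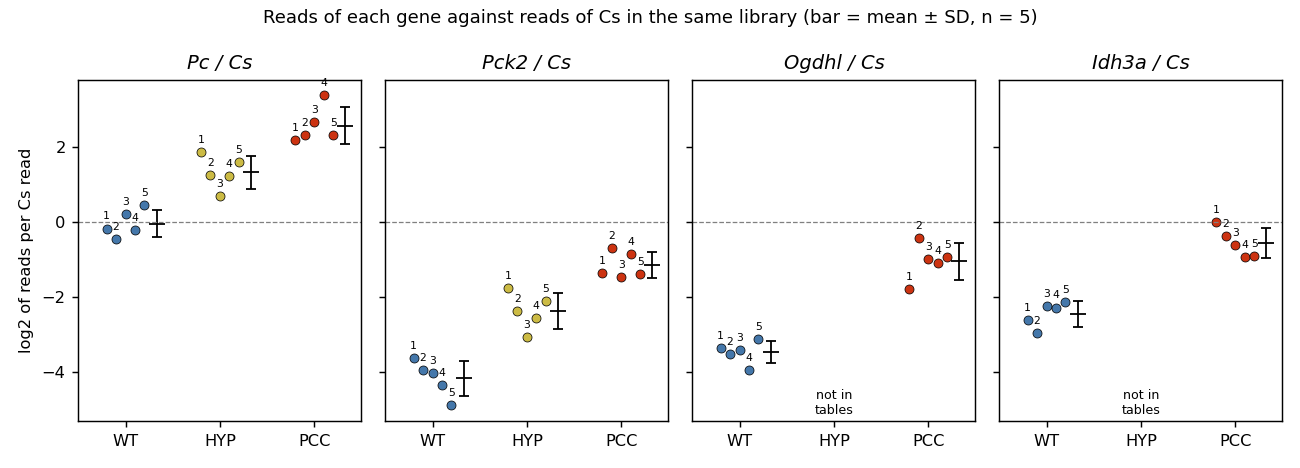
Reads of each gene per read of *Cs* in the same library, on a log2 axis shared by the panels, by group, with the replicate number beside each point and the mean ± SD of the 5 samples as a bar. The dashed line is 1 read per *Cs* read, and the WT, HYP and PCC samples of *Pc* and *Pck2* form separate steps.

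Both steps in the ratio lay beside the marker levels given above. The summed chromaffin markers were higher at each step without overlap. The summed cortex markers had a lower median at each step (41697 CPM in WT, 22488 in HYP and 10439 in PCC), but their ranges overlapped. No tested cortex gene passed the test from HYP to PCC, but all 6 tested had log2 fold changes below 0. Their median was -1.65 against 0.43 over all genes tested, and the 6 are genes that the authors had called. Against the summed chromaffin markers of the same sample, a reference chosen after seeing the data, no member had all PCC samples above all WT or all HYP samples measured. The 10 markers of this sum are genes that the authors had called, and all 10 were higher in PCC than in WT. A smaller or lost rise of the members against this sum is therefore in part fixed by its choice, and the values are not levels per chromaffin cell. *Pc* had 28.3 to 166 CPM per 1000 CPM of chromaffin markers in WT (median 41.4), 23.0 to 33.1 in HYP (median 26.5) and 12.4 to 51.3 in PCC (median 39.5). *Pck2* had 2.40 to 4.14 in WT (median 2.69), 1.84 to 2.54 in HYP (median 2.14) and 1.07 to 3.06 in PCC (median 2.72). The groups overlapped for both genes. *Ogdhl* had 3.17 to 14.0 in WT (median 3.72) and 0.790 to 4.19 in PCC (median 3.18), and *Idh3a* had 4.99 to 27.8 in WT (median 9.29) and 2.60 to 4.22 in PCC (median 3.84), where every WT sample lay above every PCC sample. The same measure of *Cs* was 37.9 to 122 in WT, 7.29 to 15.2 in HYP and 2.73 to 7.95 in PCC.

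With this reference, the log2 ratio for HYP vs. WT turned to -0.87 for *Pc* (exact permutation *p* = 0.0317) and -0.44 for *Pck2* (exact permutation *p* = 0.0397), and for PCC vs. HYP it was 0.12 for *Pc* (exact permutation *p* = 0.778) and 0.10 for *Pck2* (exact permutation *p* = 0.817). WT replicate 5, which had the lowest chromaffin sum of all samples (2001 CPM) and the lowest level of *Pck2*, weighed on the first pair. Without it, the values for HYP vs. WT were -0.44 for *Pc* (exact permutation *p* = 0.0635) and -0.31 for *Pck2* (exact permutation *p* = 0.0794), and leaving out any of HYP replicates 1, 2 and 3 or WT replicate 3 also ended both calls, as did WT replicate 4 for *Pc* and WT replicate 1 for *Pck2* (exact permutation *p* = 0.0635 to 0.0794). PCC replicate 1 had the highest chromaffin sum (37345 CPM), and without it the values for PCC vs. HYP were 0.44 for *Pc* (exact permutation *p* = 0.0952) and 0.37 for *Pck2* (exact permutation *p* = 0.0476). The part of the cell types in the levels of the 4 genes was not tested further.

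**Figure D3:**
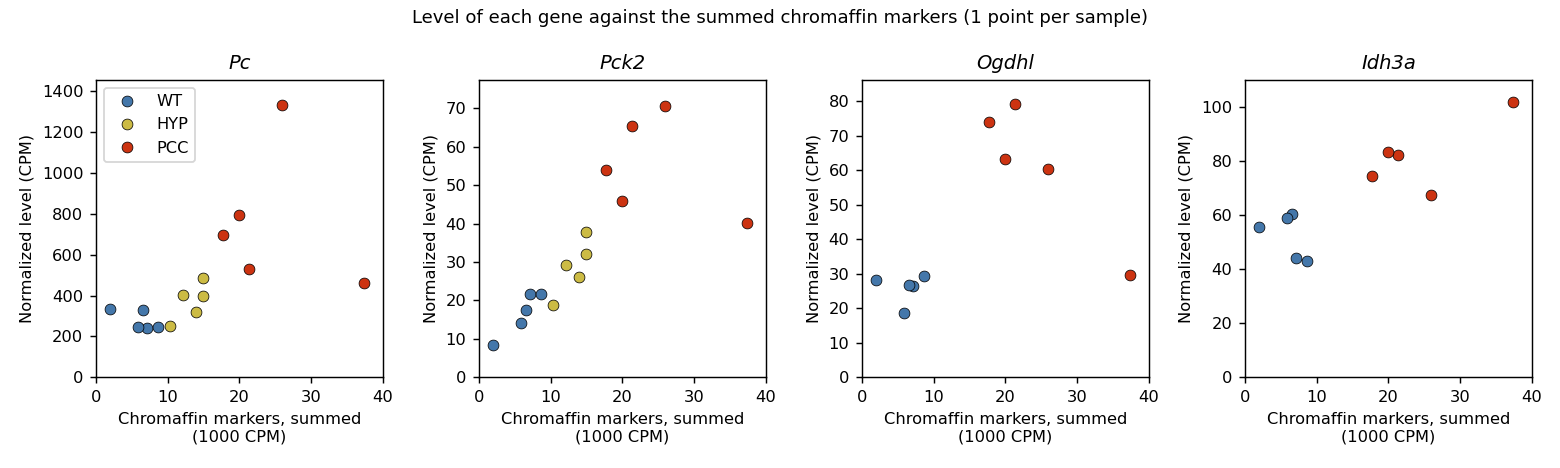
Level in CPM of *Pc*, *Pck2*, *Ogdhl* and *Idh3a* (vertical axes from 0) against the summed level of 10 chromaffin markers in 1000 CPM (horizontal axis), 1 point per sample, coloured by group. *Pck2* climbs with the marker sum over the WT, HYP and most PCC samples, while PCC replicate 1, at the right edge, has the lowest PCC levels of *Pc*, *Pck2* and *Ogdhl* and the highest of *Idh3a*.

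Levels of different genes can be compared per length, as FPKM (fragments scaled to the length of the gene model and to the depth of the library). In WT the mean FPKM followed the order *Cs* (175 ± 40.8), *Pc* (61.5 ± 9.52), *Idh3a* (19.3 ± 2.75), *Pck2* (8.24 ± 3.61) and *Ogdhl* (6.57 ± 1.56; SD, n = 5 for each). The FPKM of *Pck2* (3.12 to 11.7) and *Ogdhl* (4.42 to 8.42) overlapped in WT. In PCC the order became *Pc* (206 ± 99.995), *Cs* (88.2 ± 16.3), *Idh3a* (36.0 ± 3.76), *Pck2* (31.7 ± 9.54) and *Ogdhl* (18.9 ± 7.05; SD, n = 5 for each), and the ranges of neighbours overlapped except between *Cs* and *Idh3a*. The lowest PCC sample of *Pc*, at 102 FPKM, lay just under the highest of *Cs*, at 103. *Pc* stood above *Cs* in FPKM in 0 of 5 WT samples, 2 of 5 HYP samples and 5 of 5 PCC samples. *Pck2* did not reach the FPKM of *Cs* in any sample, nor did *Ogdhl* and *Idh3a* in any WT or PCC sample.

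*Pc*, chosen for being higher, parted from the 2 other biotin enzyme genes of the list that could be tested, both of mitochondria. *Pcca*, the propionyl-CoA carboxylase subunit that feeds the cycle through succinyl-CoA, and *Mccc1*, the methylcrotonyl-CoA carboxylase subunit of leucine breakdown, fell in all 3 comparisons by edgeR's test, with log2 fold changes of -1.21 and -1.25 from WT to PCC, -0.65 and -0.68 from WT to HYP and -0.68 and -0.69 from HYP to PCC. Of the FPKM of the 3 genes, *Pc* held 59.6 ± 2.37% (SD, n = 5) in WT, 74.7 ± 5.73% (SD, n = 5) in HYP and 89.2 ± 3.90% (SD, n = 5) in PCC. The ranges were 55.6 to 61.4%, 65.7 to 81.0% and 84.8 to 95.1%, so that the groups did not overlap.

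*Idh3a*, chosen for being higher, parted from its partners in the same enzyme. The isocitrate dehydrogenase holds alpha, beta and gamma subunits, and the genes of the regulatory subunits, *Idh3B* (as spelled in the tables) and *Idh3g*, fell for PCC vs. WT with log2 fold changes of -0.82 (standard error 0.16, adjusted *p* = 0.00261 by edgeR) and -0.79 (standard error 0.17, adjusted *p* = 0.00505 by edgeR). For PCC vs. HYP they had -0.58 and -0.60 and did not pass the test (adjusted *p* = 0.0834 and 0.0785 by edgeR). *Idh3a* had the lowest FPKM of the 3 genes in every WT and PCC sample. Its share of their summed FPKM was 6.40, 6.07, 7.12, 5.91 and 5.81% in the WT replicates in order and 14.2, 15.7, 15.8, 14.4 and 15.5% in PCC replicates 1 to 5. The share was tight within each group, with a WT mean of 6.26 ± 0.529% (SD, n = 5) and a PCC mean of 15.1 ± 0.764% (SD, n = 5), and a wide gap between them. This gap is in part fixed by the choice of *Idh3a* and by partners that the authors had called.

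**Figure D4:**
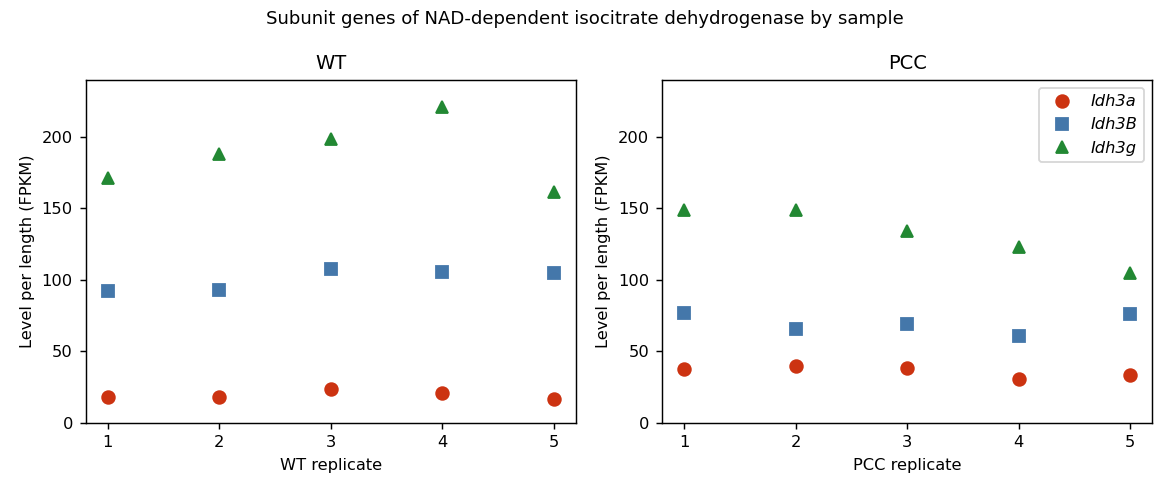
Level per length in FPKM (vertical axes from 0, the same in both panels) of the isocitrate dehydrogenase subunit genes *Idh3a*, *Idh3B* and *Idh3g* in each WT and PCC sample. *Idh3a* is the lowest in each sample, and its distance to the other subunits is smaller in PCC, where it held 15.1% of the summed FPKM against 6.26% in WT.

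*Ogdhl*, chosen for being higher, parted from the other 2-oxo acid dehydrogenase genes that could be tested. Of the 11 others of the list, 8 had been called by the authors in any comparison. Of the 8 other tested genes of this family, which comprises the pyruvate, 2-oxoglutarate, 2-oxoadipate and branched-chain dehydrogenase complexes, 8 fell for PCC vs. WT by edgeR (38.5% of all genes tested were called lower), at a median log2 fold change of -0.92 against 0.44 over all genes tested. Among them were *Dlst* (-1.20) and *Dld* (-0.70), the other components of the complex that *Ogdhl* can join, and *Bckdha* (-2.01) of branched-chain amino acid breakdown. The values of *Bckdhb* (-0.495) and *Pdhb* (-0.46) lie within the shift of 0.50 brought by scaling to the summed listed counts. For HYP vs. WT 3 of 5 fell (32.5% of all genes), and for PCC vs. HYP 1 of 3 (22.6%). *Dhtkd1*, the paralog for 2-oxoadipate, fell for PCC vs. WT by 1.44 on the log2 scale, and of the summed FPKM of the pair *Ogdhl* held 45.5 ± 5.33% (SD, n = 5) in WT samples but 82.9 ± 5.99% (SD, n = 5) in PCC samples. *Dhtkd1* had been called by the authors, so that this difference in share is in part fixed by how the pair was chosen. *Ogdh* itself is in none of the tables used here.

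The other enzymes of the TCA cycle were lower or did not pass the test. Since the higher ones are members, that none was called higher for PCC vs. WT follows from the choice. Of the 16 others tested there, 13 fell, with a median log2 fold change of -0.95 against 0.44 over all genes tested. *Suclg2* (-1.46), a succinyl-CoA ligase subunit, *Fh* (-1.40), the fumarase, and *Idh2* (-1.37), the NADP-dependent isocitrate dehydrogenase, fell most, beside the succinate dehydrogenase genes *Sdha* (-1.30), *Sdhb* (-1.14), *Sdhc* (-0.86) and *Sdhd* (-0.68). *Mdh2* (-0.44) and *Sucla2* (-0.58) were among those that did not pass. For HYP vs. WT 6 of 10 fell (median -0.59 against -0.37 over all genes tested, of which 32.5% were called lower), among which *Cs* had the largest change. For PCC vs. HYP 6 of 8 fell (median -0.81 against 0.43, with 22.6% of all genes called lower). These counts depend on the scaling, as with samples scaled to the summed listed counts 7, 1 and 0 were called lower. The values of *Mdh2* and *Pdhb* for PCC vs. WT lie within the shift of 0.50 of that scaling. Without each sample in turn, the count for PCC vs. HYP lay between 0 and 8, with 0 without HYP replicate 3 or 4 or PCC replicate 3, and it was 1 with samples scaled to the library totals and 0 with the replicate number as a block.

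Most other anaplerotic and cataplerotic enzymes that could be tested fell too. Of the 20 others of the list, 13 had been called by the authors in any comparison. Of these 13, tested beside *Pc* and *Pck2* for PCC vs. WT, 12 fell and 1, *Gpt*, rose. Their median log2 fold change was -1.46 against 0.44 over all genes tested, of which 38.5% were called lower. The largest changes were in *Me3* (-3.65), the mitochondrial NADP-dependent malic enzyme, and *Gls2* (-3.47), a glutaminase, followed by *Gpt2* (-2.04), the mitochondrial alanine aminotransferase, and *Got1* (-2.03), the cytosolic aspartate aminotransferase. *Mcee* (-1.81), *Pccb* (-1.61), *Pcca* (-1.21) and *Mut* (-0.99), which take propionyl-CoA to succinyl-CoA, fell as well, as did *Me2* (-1.46), *Idh1* (-1.01) and *Got2* (-0.93). *Gpt* itself overlapped between the groups, at a mean of 31.2 CPM in PCC against 16.4 CPM in WT. For HYP vs. WT 6 of 8 fell (median -0.77 against -0.37 over all genes tested, of which 32.5% were called lower), with *Me3* among those not passing. For PCC vs. HYP 9 of 10 fell (median -1.09 against 0.43, with 22.6% of all genes called lower), with *Mut* not passing. How these counts depend on the scaling was not tested.

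**Figure D5:**
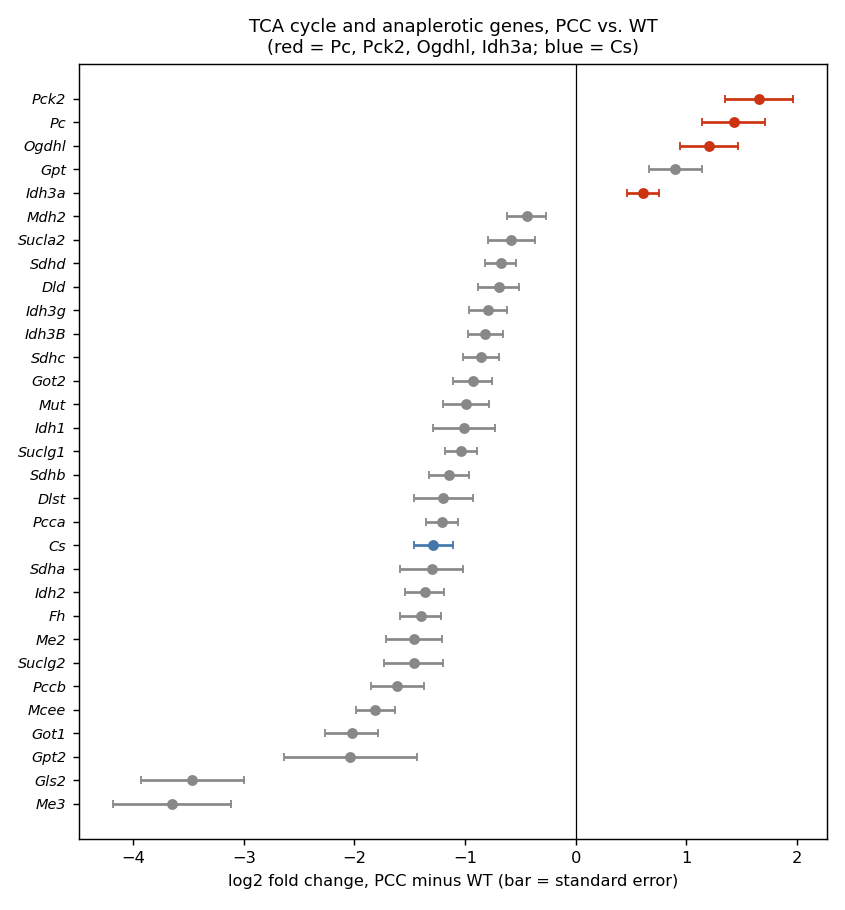
Log2 fold change for PCC vs. WT (horizontal axis, bar = standard error) of tested genes of the TCA cycle and of anaplerosis, ordered by value, with *Pc*, *Pck2*, *Ogdhl* and *Idh3a* in red and *Cs* in blue. The members, chosen for being higher, lie right of 0 with *Gpt* (0.90), and the other genes drawn lie left of it, down to *Me3* at -3.65.

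The entry of pyruvate into the cycle as acetyl-CoA is the branch that competes with *Pc*. Of the 13 genes of its list, only 5 had been called by the authors in any comparison. From WT to PCC, among 5 genes tested, *Mpc2* (-0.91) of the pyruvate carrier, *Pdhb* (-0.46) and *Pdhx* (-0.91) of the pyruvate dehydrogenase complex and *Pdp2* (-1.23), an activating phosphatase of it, fell, while *Pdp1* (1.01), the other activating phosphatase, rose. For HYP vs. WT 1 of 2 fell, *Mpc2* (-0.41), and 0 of 2 passed edgeR's test for PCC vs. HYP, where *Pdp1* had 0.73 (adjusted *p* = 0.0547) and *Mpc2* -0.61 (adjusted *p* = 0.0532). Of the 8 listed inner membrane carriers of cycle intermediates and glutamate, 4 had been called by the authors in any comparison. For PCC vs. WT 2 of these 4 fell. They were *Slc25a10* (-1.44), the dicarboxylate carrier, and *Slc25a18* (-2.69), a glutamate carrier. The level of *Slc25a18* was low, with means of 1.86 CPM in WT and 0.297 CPM in PCC. For HYP vs. WT 1 of 2 fell, *Slc25a10* (-0.77). Beside the counts of this paragraph, 46.7% of all genes tested were called higher and 38.5% lower for PCC vs. WT, and 32.5% lower for HYP vs. WT.

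*Pc* and *Pck2* are also the first steps of gluconeogenesis. Of the 7 others of that list, 3 had been called by the authors in any comparison. Of the other genes of that route, *Fbp1*, the fructose-bisphosphatase, rose for PCC vs. WT by 4.29 on the log2 scale (standard error 0.62, adjusted *p* = 0.000554 by edgeR) and for PCC vs. HYP with 2.30 (standard error 0.51, adjusted *p* = 0.0225 by edgeR). Its level was low throughout, with means of 0.151 CPM in WT, 0.596 CPM in HYP and 3.21 CPM in PCC. *G6pc3*, a glucose-6-phosphatase, had -0.23 for PCC vs. WT and did not pass. *Ldha*, the lactate dehydrogenase that competes for pyruvate, fell for HYP vs. WT (-0.86) and had 1.10 for PCC vs. HYP without passing (adjusted *p* = 0.0674 by edgeR).

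*Pck2* is a known target of ATF4, the transcription factor of the amino acid response. Of the 17 other genes of that response tested for PCC vs. WT, 4 rose and 9 fell, with a median of -1.17, where 46.7% of all genes tested were called higher and 38.5% lower. *Asns* (1.66), the asparagine synthetase, *Shmt2* (1.20) of serine catabolism, *Atf5* (1.16) and *Sesn2* (0.60) rose. *Mthfd2* (-2.82) of mitochondrial folate metabolism, *Slc7a5* (-2.34), an amino acid carrier, *Trib3* (-1.53) and *Atf4* itself (-1.17) were among those that fell. For HYP vs. WT 0 of 6 rose and 4 fell, where 32.5% of all genes tested were called lower and 54.8% of the genes called were higher. For PCC vs. HYP 1 of 10 rose, *Asns* (1.16), and 3 fell, against 21.8% higher and 22.6% lower among all genes tested. Of the regulators of mitochondrial biogenesis, *Esrrg* (1.06), an estrogen-related receptor, rose and *Tfam* (-0.57), which maintains mitochondrial DNA, fell for PCC vs. WT, and for HYP vs. WT *Esrrg* (0.78) rose and *Esrra* (-0.86) fell.

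The genes with the most similar pattern to each member were found by Pearson's r of log2 CPM over 4683 genes, as a description across samples that share the group differences and the cell makeup. Over the 15 samples, *Pc* was nearest to *Mk1* (r = 0.971), *Lrch4* (0.966), *Shc1* (0.963), *Mfsd12* (0.960) and *Brf2* (0.954). *Pck2* was nearest to *Lpcat4* (r = 0.985), *Cdk5r2* (0.982), *Carhsp1* (0.981), *Sult4a1* (0.981) and *Snph* (0.981). Over the 10 WT and PCC samples, *Ogdhl* was nearest to *Coro7* (r = 0.973), *S100a16* (0.964), *Mxd4* (0.956), *Itga7* (0.952) and *Plxnd1* (0.950), and *Idh3a* to *Hyou1* (0.966), *Gnl3l* (0.962), *Ano6* (0.945), *Zfp583* (0.942) and *Med7* (0.940). After removal of the group means, r of these neighbours was 0.842 to 0.920 for *Pc*, 0.915 to 0.945 for *Pck2*, 0.831 to 0.909 for *Ogdhl* and 0.782 to 0.905 for *Idh3a*. No gene was among the 5 nearest of more than 1 member.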

How the data were processed

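RNA-seq was done on 5 WT, 5 HYP and 5 PCC samples, grouped by their labels. Per the methods and the submitters' processing notes, the authors prepared paired-end libraries that do not keep strand from poly-A RNA, mapped reads to Rn06 with HISAT2 2.0.5, counted them with featureCounts 1.5.0-p3 and compared groups with DESeq2. The 3 deposited tables hold raw read counts, a signal (the count divided by a size factor per sample, by the authors) and FPKM as deposited. The authors' log2 fold changes, p-values and adjusted p-values were not used, except that the p-values gave how many genes they had tested (18790 between PCC and WT, 18057 between HYP and WT, 17454 between PCC and HYP).

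Counts were analysed with edgeR 4.0.16 (R 4.3.3): TMM over the listed genes, filterByExpr, and the quasi-likelihood test, with the Benjamini-Hochberg adjustment over all genes that the authors tested, and a threshold of 0.05. This makes each adjusted p an upper bound. Library totals were recovered from the counts and FPKM of genes with 20 or more counts. CPM values use TMM factors over the 5492 genes with values in all 15 samples. Ratios to *Cs* used a pseudocount of 0.5 and two-sided exact permutation tests (scipy 1.17.1, Python 3.11.15). The script of the fit was tested on simulated counts in which most genes did not change. The listed genes are all called ones, so that test does not bear on the scaling of these data. Alternatives were DESeq2 1.42.0, other scalings, filters and pseudocounts, other references, a replicate block, 1 fit over all samples and leaving out each sample.

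The members and lists were chosen with earlier results of these data known. Besides the members and *Cs*, genes were named from the lists of TCA cycle, anaplerosis and 2-oxo acid dehydrogenase genes, up to 4 with the largest called changes from each other list, and 5 with the highest Pearson's r per member. *G6pc3*, *Ldha*, *Atf4*, *Trib3*, *Sesn2*, *Pdhb* and other genes with small or no calls were named to account for their lists after their values were seen. The single values of 2 genes of these lists are not reported here, and the genes stay in the counts and medians.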

Additional observations from a re-analysis of the deposited data

Results flagged for a closer look

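Groups of 5 samples were examined for a sample far from the rest, and 5 of 36 stood out by Dixon's test, which flags about 1 in 20 groups by chance. WT replicate 4 had 18.7 CPM of *Ogdhl*, against 26.4 to 29.4 CPM in the other WT samples. The other values are all of WT replicate 5 per 1000 CPM of chromaffin markers and share its low marker sum of 2001 CPM. *Pc* was at 166 there, against 28.3 to 50.7 in the other WT samples. *Ogdhl* was at 14.0, against 3.17 to 4.10, *Idh3a* at 27.8, against 4.99 to 9.99, and *Cs* at 122, against 37.9 to 48.3.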

How the results depend on the processing

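Of the values under alternatives, 274 kept their direction and their side of the threshold, or, where they have no test, stayed within 1 SD or 1.5 times of the reported value; 29 moved further, 15 lost and 4 gained a call, and 2 reversed. Sizes moved within the first class too, as *Cs* for HYP vs. WT had -0.54 with samples scaled to the summed listed counts. The log2 ratios of *Pc* and *Pck2* reversed for HYP vs. WT against the summed chromaffin markers (-0.87 and -0.44) and were 0.12 and 0.10 for PCC vs. HYP. This reference, made of genes that the authors had called, was chosen after seeing the data. So was *Idh3B*, which kept every call. It too had been called by the authors and was lower in PCC than in WT. A rise of the ratios to it is therefore in part fixed by its choice. Under the replicate block the ratios to *Cs* were 1.37 and 1.24 for *Pc* and 1.80 and 1.21 for *Pck2*, each with an exact permutation *p* of 0.0625, the smallest that 5 pairs allow. The replicate numbers did not pair the samples (correlations of -0.174 to 0.275 between same-numbered samples). With the block, 366 genes were called for PCC vs. HYP, against 1397, and 2366 with DESeq2, and without each sample in turn 432 to 1773, of which 432 to 800 without HYP replicate 2, 3, 4 or 5 or PCC replicate 2 or 3. For *Pc* in PCC vs. HYP, the log2 fold change was 1.16 with library totals, 0.72 with DESeq2 and 1.07 in 1 fit over all samples, past the threshold each time (adjusted *p* = 0.0469, 0.0491 and 0.0181), and 0.62 to 1.01 without each sample. For *Pck2* it was 0.65 with DESeq2's size factors in edgeR and 0.83 with the replicate block, no longer past it (adjusted *p* = 0.0530 and 0.0782), and 0.68 to 0.92 without each sample. The cause was not tested. Only genes that the authors had called were available to every test, so no count here is a share of the transcriptome.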
